A study of Mus musculus with 4 samples.

Results

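The Argonaute genes Ago1, Ago2, Ago3 and Ago4 and the GW182 genes Tnrc6a, Tnrc6b and Tnrc6c encode the proteins that carry out silencing by microRNAs. They were followed probe by probe in mouse fibroblasts that had received an siRNA against Xpo5, the gene of Exportin-5. These are 7 of 28095 gene names on the array, and every non-control probe whose gene name in the scanner files is one of the 7 was taken, with Ago1 to Ago4 also under their older names Eif2c1 to Eif2c4. This gave 26 of the 41174 probes on the array, 16 for Argonautes and 10 for Tnrc6 genes. A probe was tested if each array of 1 group or of the other showed it well above background, which held for 24 of the 26 and for 25641 of all probes. Of the 24, 22 were above background on all 4 arrays.

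The cells were wild type primary embryonic fibroblasts of C57BL/6 mice. The control group received a negative control siRNA and the other an siRNA against Exportin-5, each at 60 nM, with 2 arrays per group. All 4 samples went through 12 h of incubation, 48 h in 0.2% serum, and 24 h in 20% serum with a second dose, a serum shift that lets resting fibroblasts return to the cell cycle. Both groups thus carry a transfected siRNA and a serum pulse, and no untransfected sample is among the 4. The replicate number was read as the experiment, since the series names 2 independent experiments. Whether these used different embryos is not given in the sources used here, so the p-values cover only the spread among the 4 samples, which may be technical.

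As background, an Argonaute protein holds the microRNA, or a transfected siRNA, as its guide to a target transcript. AGO2 is the member that cleaves a fully matched target. The GW182 proteins, which the Tnrc6 genes encode, bind Argonaute through repeats of glycine and tryptophan and bring in the poly(A)-binding protein and the PAN2-PAN3 and CCR4-NOT deadenylases. Exportin-5 acts earlier, carrying microRNA precursor hairpins out of the nucleus.

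Values are log2 signals with the 75th percentile of each array set to 0, and differences are Xpo5 siRNA minus control siRNA on the log2 scale, with the SE of the limma fit. Signals of different probes cannot be ranked against each other on an array. The share of spots well above background was 62.4% to 65.0% per array, and having only 4 arrays limits the precision. The target itself was low where the labels place it. Xpo5 probe A_52_P201232 (chromosome 17, 46378755 to 46378814, mm9) read 1.31 and 1.26 with control siRNA, against -1.95 and -1.93 with Xpo5 siRNA. That left 10.7% of the signal (limma adjusted p = 0.0654 over all probes, and 0.0414 with the replicate number as a block). The other kept Xpo5 probes, A_51_P152191 and A_52_P209328, left 11.8% and 39.5%, with limma adjusted p of 0.178 and 0.425, and 0.102 each with the block. Both read lower on each Xpo5 siRNA array than on either control. The remaining probe, A_52_P638867, was below the filter. It read -7.47 and -7.36 with control siRNA, against -7.52 and -4.97 with Xpo5 siRNA. Only 1 array, of the Xpo5 siRNA group, showed it well above background. Probes of all 12 fibroblast markers, such as collagen I and fibronectin genes, were above background, and their median difference was 0.09. Of the macrophage markers, all 14 genes had kept probes, and 21 of 21 of these probes read higher with Xpo5 siRNA, against 51.8% of all probes. At a limma unadjusted p under 0.05, 14 were higher (66.7%, against 6.28% of all probes), and 0 passed when adjusted. Their median difference was 0.72, with summed signals of 26530 to 33270 with control siRNA, against 39820 to 47340 with Xpo5 siRNA. Kept neural and endothelial probes had medians of 0.73 each, over 8 and 3 probes, with Gfap, Cdh5, Cldn5 and Pecam1 below the filter. At that unadjusted p, 5 of the 8 and 3 of the 3 were higher, and 0 passed when adjusted. The summed neural signal was 4838 and 4871 against 4078 and 4034, and the endothelial 183.8 and 186 against 372 and 327.9. The 5 kept epithelial probes had a median of -0.62 and the 3 of skeletal muscle 0.14. In a bulk sample, a change in the number of cells of a type and a change in RNA per cell cannot be told apart. The part of these markers in the values that follow was not tested.

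The sequences of 2 probes, of Ago1 and Tnrc6b, are printed because these probes were among those that differed most between the experiments. They are given 5′ to 3′ as the scanner files list them, with no part marked.
Ago1 A_52_P313035: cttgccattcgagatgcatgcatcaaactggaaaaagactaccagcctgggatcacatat
Tnrc6b A_52_P301047: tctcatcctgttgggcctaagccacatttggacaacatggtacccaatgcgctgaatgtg
Both probes read higher in experiment 2 than in experiment 1 with either siRNA.

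No Argonaute or GW182 probe passed the test. Over all probes 0 of 25641 (0%) had a limma adjusted p under 0.05, and 2787 (10.9%) had an unadjusted p under 0.05. Of the 24 member probes, 3 (12.5%) had an unadjusted p under 0.05, 2 higher and 1 lower, against 6.28% and 4.59% of all probes. The smallest adjusted p among them was 0.319. With the replicate number as a block, 4 probes passed over all (0.0156%) and 0 members did. The unadjusted share with the block was 6 of 24 (25%) against 23.4% of all probes, being 3 higher and 3 lower (13.4% and 9.96% of all probes). The lower ones with the replicate block include Ago4 A_52_P17422, which passed the filter only through the control group, where it read higher. With the slide as a block the unadjusted share was 2 of 24, against 5.15% of all probes, 1 higher (3.3% of all probes) and 1 lower (1.85%). The median difference of the 24 probes was -0.02, beside 0.01 for all kept probes, with 10 probes higher and 14 lower. Scaling by the array median, which moves the median of all probes by -0.11, turned that split to 5 higher and 19 lower.

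**Figure D1:**
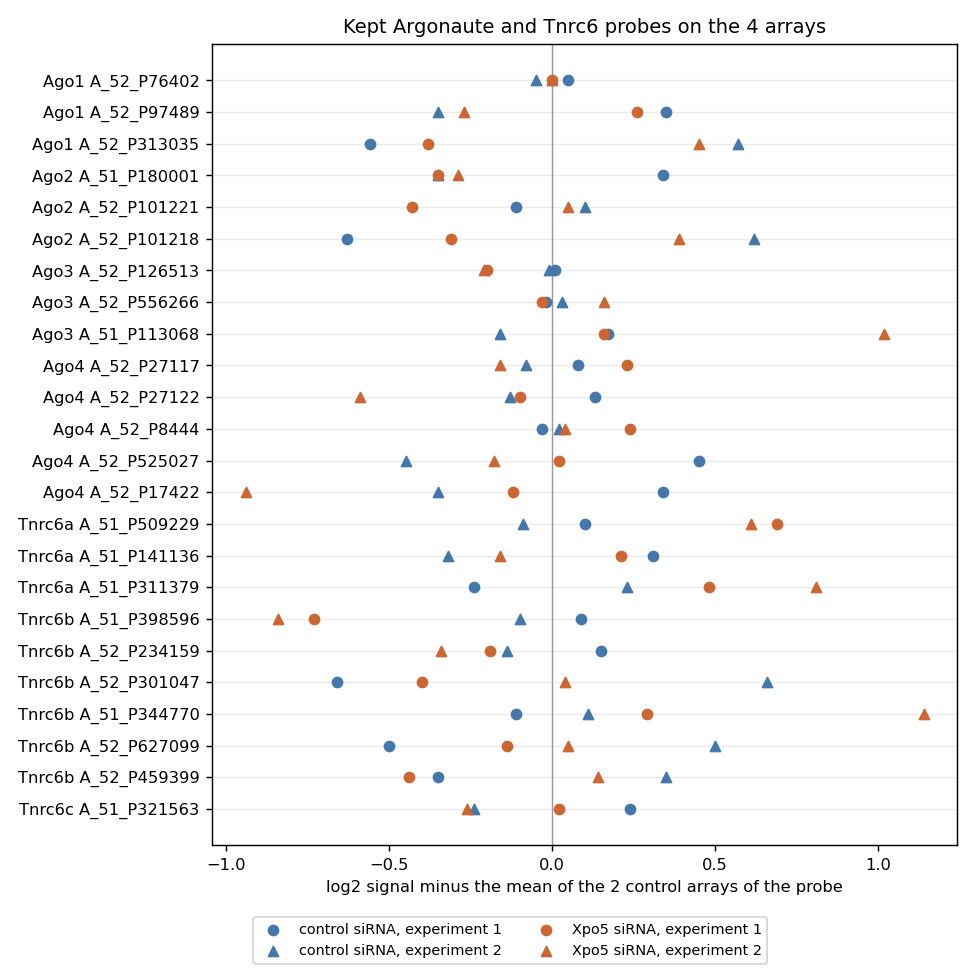
Log2 signal of each kept Argonaute and Tnrc6 probe on the 4 arrays, relative to the mean of its 2 control arrays (horizontal axis), 1 probe per line, with experiments 1 and 2 as circles and triangles. Blue and orange points separate on 7 of the 24 lines, and for 16 the experiments lie farther apart than the siRNA groups.

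The Argonautes are taken first. Ago2 encodes the cleaving Argonaute, and its 3 probes differed by -0.31, -0.19 and 0.05. The 3'-most of them, A_51_P180001 (chromosome 15, 72936863 to 72936922, mm9), read 3.41 and 2.72 with control siRNA, against 2.72 and 2.78 with Xpo5 siRNA. Only the control of experiment 1 stood apart, and the groups overlapped. The difference was -0.31 ± 0.26 (SE, limma adjusted p = 0.701), being -0.69 in experiment 1 and 0.06 in experiment 2. Its 95% interval went from -1.01 to 0.38.

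The next Ago2 probe, A_52_P101221 (72937291 to 72937350), lies 428 bases upstream in the genome. It read 0.64 and 0.85 with control siRNA, against 0.32 and 0.80 with Xpo5 siRNA, a difference of -0.19 ± 0.22 (limma adjusted p = 0.783). Its groups overlapped too. The third, A_52_P101218, read -2.81 and -1.56 with control siRNA, against -2.49 and -1.79 with Xpo5 siRNA. Here both arrays of experiment 2 were the high ones, by 1.25 and 0.70, and the siRNA difference was 0.05 ± 0.49.

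A further probe, A_51_P166107, carries the name 2310051F07Rik, which the RefSeq table lists as a synonym of Ago2. It lies 7669 bases beyond the 3'-most Ago2 probe and is not counted among the 26. It read 4.65 and 4.45 with control siRNA, against 4.28 and 3.95 with Xpo5 siRNA, with the Xpo5 siRNA arrays below both controls. The difference was -0.44 ± 0.19 (limma adjusted p = 0.497), at -0.37 and -0.51 in the experiments.

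Ago1, Ago3 and Ago4 encode Argonautes that act mainly through GW182 recruitment, and the RefSeq table places them side by side on chromosome 4 with no other listed gene between them. Ago1 showed the smallest differences, at 0.03, 0.00 and 0.00 over its 3 probes. Its probe A_52_P76402 (126112644 to 126112703) read -0.48 and -0.58 with control siRNA, against -0.53 on each Xpo5 siRNA array, and the 95% interval of its difference was -0.37 to 0.36. Without a block, the intervals of the other probes were wider. With the replicate number as a block, the SEs were 0.11 for A_52_P76402, 0.12 for A_52_P97489 and 0.13 for A_52_P313035. Probe A_52_P97489 (126115585 to 126115644) read 1.1 and 0.40 with control siRNA, against 1.01 and 0.48 with Xpo5 siRNA, and its interval was -0.84 to 0.83. Probe A_52_P313035 (126118478 to 126118537) read -5.04 and -3.91 with control siRNA, against -4.86 and -4.03 with Xpo5 siRNA, with an interval of -1.23 to 1.29. These 2 probes differed between the experiments in opposite directions, the first being lower and the second higher in experiment 2 with either siRNA.

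Ago3 had 5 probes, of which 3 were kept. The 3'-most, A_52_P126513 (126010997 to 126011056), read -1.45 and -1.47 with control siRNA, against -1.66 and -1.67 with Xpo5 siRNA. The Xpo5 siRNA arrays were both lower and the arrays of a group nearly coincided, yet the difference was small, at -0.20 ± 0.14 (limma adjusted p = 0.635). It was -0.20 in each experiment, and the files list no RefSeq mRNA for this probe. Probe A_52_P556266 (126018745 to 126018804) differed by 0.06 ± 0.15. Probe A_51_P113068 (126022668 to 126022727) differed by 0.59 ± 0.33 through 1 array, the Xpo5 siRNA array of experiment 2, which read -4.59 against -5.45 on the other. Without that array it was 0.16. Of the control arrays, 1 showed it well above background. The 2 probes that were not tested lie between the first 2 in the genome. A_52_P24793 (126012888 to 126012947) read -6.01 and -6.25 with control siRNA, against -5.47 and -5.49 with Xpo5 siRNA. A_52_P126521 (126011965 to 126012024) read -6.74 and -5.69, against -6.40 and -5.51. Each was above background on a single array, of the Xpo5 siRNA group, so these values have no order.

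All 5 Ago4 probes were kept. The differences were 0.04 for the 3'-most probe, A_52_P27117 (126166896 to 126166955), -0.35 for A_52_P27122, 0.14 for A_52_P8444, -0.08 for A_52_P525027 and -0.53 for A_52_P17422 (126193135 to 126193194). The last read -4.68 and -5.37 with control siRNA, against -5.14 and -5.96 with Xpo5 siRNA, so the groups overlapped. Within the experiments it was lower by similar amounts, at -0.46 and -0.60, but within the slides the differences had opposite signs, at 0.23 and -1.28. Of its Xpo5 siRNA arrays, 1 was well above background. The difference was -0.11 without the Xpo5 siRNA array of experiment 2, -0.18 without the control of experiment 1, and -0.07 with normexp background correction. Ago4 probe A_52_P525027 (126185617 to 126185676), read -1.38 and -2.28 with control siRNA, against -1.81 and -2.01 with Xpo5 siRNA. Its controls lay outside both Xpo5 siRNA arrays, one above and the other below. The groups of A_52_P8444 (126169722 to 126169781) did not overlap, at -4.25 and -4.20 against -3.98 and -4.18, although the nearest arrays were 0.02 apart.

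In the fit without a block, the 3 probes with an unadjusted p under 0.05 were of Tnrc6a and Tnrc6b, and these did not go the same way. With the replicate block, the 3 further ones were Tnrc6b A_51_P344770, Ago4 A_52_P17422 and Ago4 A_52_P27122, with limma adjusted p of 0.147, 0.121 and 0.208. A_52_P17422 passed the filter only through the control group, where it read higher. With normexp background correction the 3 differed by 0.44, -0.07 and -0.08. Tnrc6a encodes GW182 itself. Its 3'-most probe, A_51_P509229 (chromosome 7, 130338627 to 130338686, mm9), read 1.25 and 1.06 with control siRNA, against 1.84 and 1.76 with Xpo5 siRNA. Both Xpo5 siRNA arrays were above both controls. The difference was 0.64 ± 0.15 (limma adjusted p = 0.334), at 0.59 and 0.70 in the experiments and 0.78 and 0.51 within the slides.

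The most upstream Tnrc6a probe, A_51_P311379 (130317766 to 130317825), lies 20861 bases away. It read -0.97 and -0.50 with control siRNA, against -0.25 and 0.08 with Xpo5 siRNA, again without overlap, and differed by 0.65 ± 0.23 (limma adjusted p = 0.438). Within the slides the difference was 0.26 and 1.05. Between these 2 probes lies A_51_P141136 (130336949 to 130337008), 1678 bases from the 3'-most probe. It read 1.81 and 1.18 with control siRNA, against 1.71 and 1.34 with Xpo5 siRNA, and its difference was 0.03 ± 0.28. So 2 probes of Tnrc6a read higher with Xpo5 siRNA in both experiments, and the one between them did not.

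Tnrc6b, a paralog with the same role, was lower on 5 of 6 probes and higher on 1. Of the 5, only 2 had groups that did not overlap. A_52_P627099 and A_52_P301047 were higher in experiment 1, by 0.36 and 0.26, and lower in experiment 2, by -0.45 and -0.62. A_52_P459399 turned to 0.04 with normexp background correction. The 3'-most probe, A_51_P398596 (chromosome 15, 80760130 to 80760189, mm9), read 1.05 and 0.86 with control siRNA, against 0.23 and 0.12 with Xpo5 siRNA. Both Xpo5 siRNA arrays lay below both controls. The difference was -0.78 ± 0.15, leaving 58.2% of the control signal (limma adjusted p = 0.319). It was -0.82 and -0.74 in the experiments and -0.63 and -0.93 within the slides. Of the 24 tested probes this one had the largest difference in size and the smallest p.

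The other Tnrc6b probe whose groups were apart in that direction, A_52_P234159 (80749410 to 80749469), differed by -0.27 ± 0.17. Against these stood A_51_P344770 (80711713 to 80711772), which read -3.87 and -3.65 with control siRNA, against -3.47 and -2.62 with Xpo5 siRNA. It was higher in both experiments, by 0.40 and 1.02, with a difference of 0.71 ± 0.32 (limma adjusted p = 0.511). Within the slides the difference was 0.18 and 1.25. It was 0.29 without the Xpo5 siRNA array of experiment 2 and 1.14 without that of experiment 1. The files list no RefSeq mRNA for either of these probes. The remaining 3 probes, A_52_P459399, A_52_P627099 and A_52_P301047, differed by -0.15, -0.04 and -0.18, with SEs of 0.33 to 0.48.

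Tnrc6c, the third paralog, had a single probe, A_51_P321563 (chromosome 11, 117623270 to 117623329, mm9). It read 0.38 and -0.10 with control siRNA, against 0.16 and -0.12 with Xpo5 siRNA. The groups overlapped, and the difference was -0.12 ± 0.23 (limma adjusted p = 0.861).

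**Figure D2:**
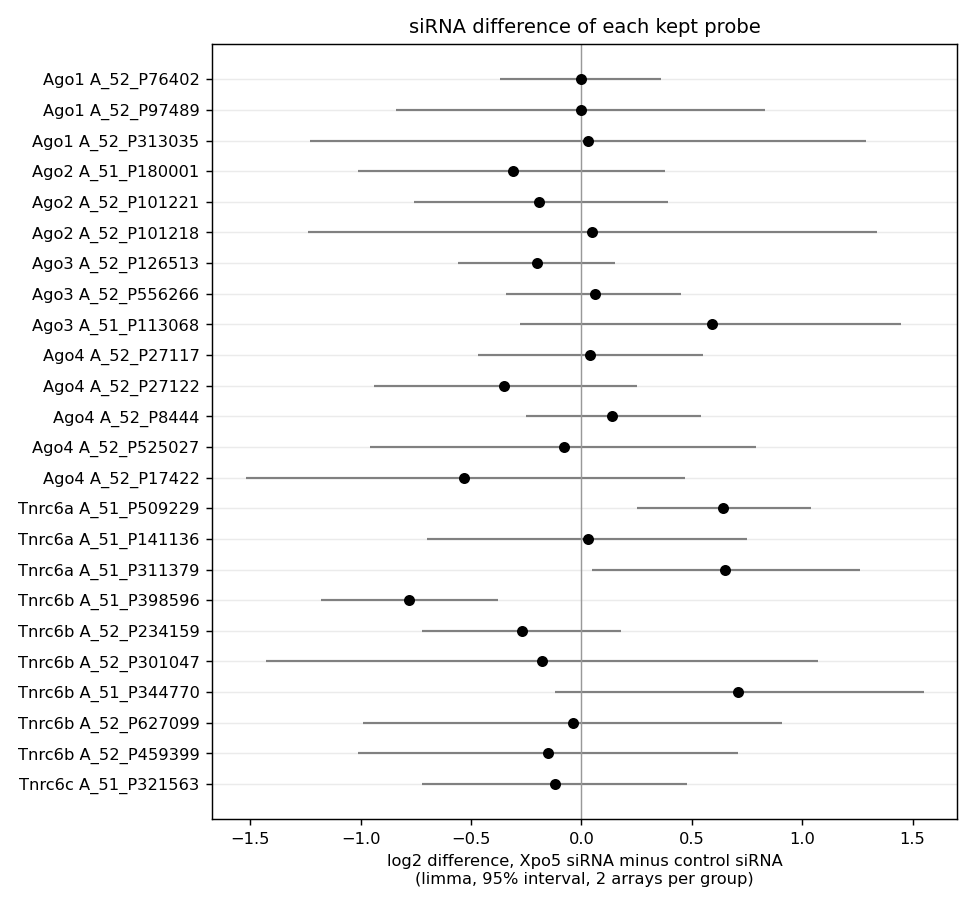
Log2 difference between Xpo5 siRNA and control siRNA for each kept probe (point) with its 95% interval from limma without a block (line), 2 arrays per group. The intervals of 2 Tnrc6a probes lie above 0 and that of Tnrc6b A_51_P398596 below 0, before adjustment for the number of probes, and the others include 0.

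The spread among probes of Tnrc6b, from -0.78 to 0.71, was 1.49. It was the widest among the 31 genes with 6 kept probes, whose median was 0.58. Among the 1430 genes with 3 kept probes, whose median was 0.32, the spread of Ago3 was 0.79, reached by 6.92%. That of Tnrc6a was 0.62, reached by 12.9%, that of Ago2 was 0.36, reached by 41.9%, and that of Ago1 was 0.03, reached by 99.1%. For Ago4 it was 0.67, reached by 30.4% of 92 genes with 5 kept probes. The Ago3 spread ended at A_51_P113068, well above background on 1 control array, and the Ago4 spread at A_52_P17422, on 1 Xpo5 siRNA array. Each was kept through the group where it read higher. With normexp background correction they differed by 0.16 and -0.07, so these 2 spreads depend on dim values. The upper end of the Tnrc6b spread, A_51_P344770, was also dim, with signals of 36.2 to 84 before the log2. It differed by 0.44 with normexp. The Tnrc6b probe nearest to it in the genome, A_52_P627099 (80711520 to 80711579), differed by -0.04. Whether 2 probes of a gene responded differently was tested after these values were seen. The test took the within-array difference of each upstream probe from the 3'-most kept probe of its gene, in limma over 8621 pairs. None passed at an adjusted p under 0.05 (0%), and 237 (2.75%) had an unadjusted p under 0.05. Among the 17 member pairs this was 1, Tnrc6b A_51_P344770 against A_51_P398596, at 1.49 ± 0.39 (limma adjusted p = 0.998, and 0.157 with the replicate block). With the block 7 of the 17 had an unadjusted p under 0.05, against 12.4% of all pairs. Of the 7, 4 were from Tnrc6b and shared its 3'-most probe. Ago3 A_51_P113068 and Ago4 A_52_P17422 were in 1 pair each of the 7, and passed the filter only through the group where they read higher. The 7 are thus not independent results.

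**Figure D3:**
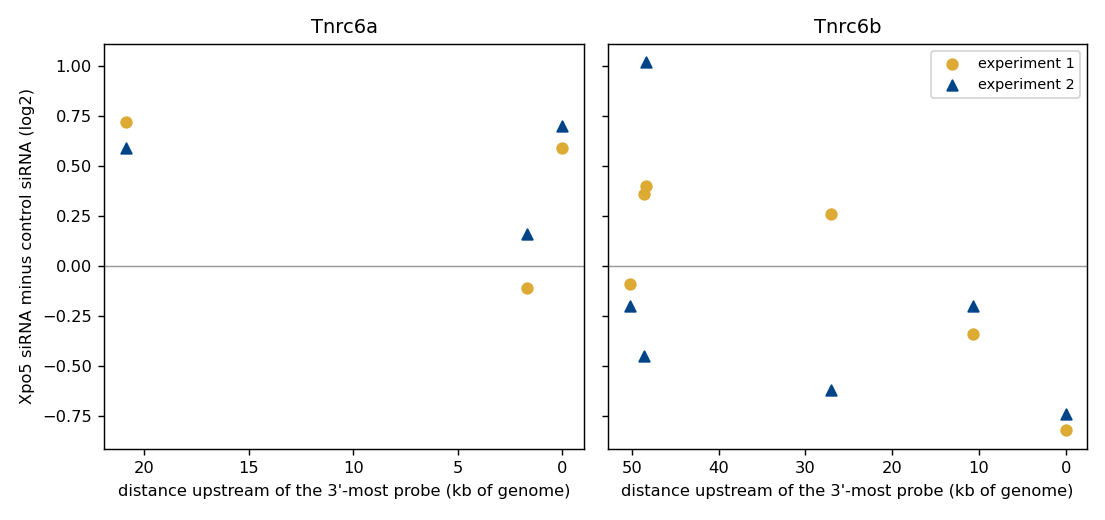
Difference between Xpo5 siRNA and control siRNA in each experiment (vertical axis, log2) for the kept probes of Tnrc6a and Tnrc6b, by genomic distance upstream of the 3'-most probe of the gene in kb, introns included. The 3'-most probes lie at 0.59 and 0.70 for Tnrc6a and at -0.82 and -0.74 for Tnrc6b, and the probes upstream do not follow them as a group.

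For most of the 24 probes the experiments lay farther apart than the siRNAs. The difference between experiments 2 and 1, averaged over the siRNAs, exceeded the siRNA difference for 16 of 24 probes (66.7%), against 50.5% of all probes. Its median size was 0.38 for the members and 0.19 for all probes. Ago1 A_52_P313035 was higher in experiment 2 by 1.13 with control siRNA, against 0.83 with Xpo5 siRNA, and Tnrc6b A_52_P301047 by 1.32 and 0.43. The latter (chromosome 15, 80733034 to 80733093) read -5.35 and -4.03 with control siRNA, against -5.09 and -4.65 with Xpo5 siRNA. Both probes were dim, although well above background on all 4 arrays. Their signals before the log2 were 16.1 to 38.9 for the Ago1 probe and 13 to 35.8 for the Tnrc6b probe. Ago4 A_52_P525027 differed between the experiments by -0.90 and -0.19, being lower in experiment 2. For 20 of the 24 probes (83.3%) the gap had the same sign with both siRNAs, against 71.5% of all probes.

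This gap also varied with the position of the probe. Over all genes, probes 2000 to 10000 bases upstream of the 3'-most kept probe had a gap 0.27 higher than that probe at the median of 2824 pairs, and 75.7% were above 0. The medians were 0.04 up to 500 bases, 0.17 up to 2000, 0.27 from 10000 to 50000 and 0.23 beyond. Among the 17 member pairs 11 (64.7%) were above 0 with a median of 0.28, beside 71.3% and 0.19 over all 8621 pairs, and the largest was 1.29, for Ago2 A_52_P101218. The same medians of the siRNA difference ran from -0.02 to 0.08 over all distances. The part of probe position in the member values was not tested.

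**Figure D4:**
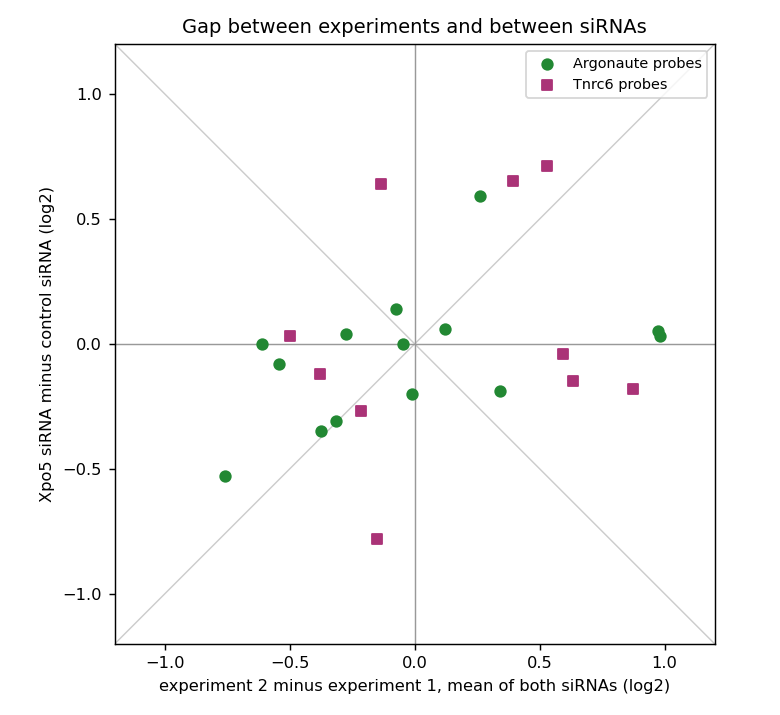
Difference between the experiments (horizontal axis) against difference between the siRNAs (vertical axis) for the 24 kept probes, both on the log2 scale, with Argonaute probes as circles and Tnrc6 probes as squares, and grey diagonals where both are of equal size. Of the probes, 16 lie nearer the horizontal axis than the vertical one, and Tnrc6a A_51_P509229 and Tnrc6b A_51_P398596 lie near the vertical axis.

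The siRNA groups did not overlap for 7 of the 24 probes (29.2%), against 43.2% of all probes (21.5% higher and 21.7% lower). Those 7 were 4 higher, namely 2 of Tnrc6a, Tnrc6b A_51_P344770 and Ago4 A_52_P8444, and 3 lower, namely Tnrc6b A_51_P398596 and A_52_P234159 and Ago3 A_52_P126513. The sign of the siRNA difference was the same in experiments 1 and 2 for 12 of 24 (50%), against 69.6% of all probes.

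The proteins that load Argonautes or act with them were then read from a list of 26 genes, 25 of them with kept probes. Of its 42 kept probes 0 passed at a limma adjusted p under 0.05, the median was 0.00, and 1 probe each was higher and lower at an unadjusted p under 0.05 (2.38% each, against 6.28% and 4.59% of all probes). With the replicate block these were 4 higher and 3 lower (13.4% and 9.96% of all probes). The higher one was of Ipo8, an importin that has been linked to the nuclear entry of Argonaute. It read 1.15 and 0.92 with control siRNA, against 1.5 and 1.59 with Xpo5 siRNA, a difference of 0.51 ± 0.16 (limma adjusted p = 0.395), and its other probes differed by 0.35 and 0.37. The lower one was of Ddx20, a helicase found with Argonaute, at -0.39 ± 0.14. Fmr1, an RNA-binding protein, had probes at 0.34 and 0.32, and Stip1, an HSP90 co-chaperone, had its 1 kept probe at -0.41.

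The deadenylases that GW182 brings to a target, together with decapping and decay factors and the Btg and Tob genes, formed a list of 30 genes, all with kept probes. Not every gene on it encodes a protein that GW182 recruits. Again 0 of 59 kept probes passed at a limma adjusted p under 0.05, and the smallest was 0.319. The median was -0.09, with 38 probes lower and 21 higher. At an unadjusted p under 0.05, 7 were lower (11.9%, against 4.59% of all probes) and 1 higher (1.69%, against 6.28%). With the replicate block, 12 were lower and 4 higher of the 59, against 9.96% and 13.4% of all probes. Of the 7 lower, 3 were probes of Btg2, an antiproliferative gene whose protein binds the CCR4-NOT deadenylase.

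The first Btg2 probe read 1.89 and 1.86 with control siRNA, against 1.19 and 1.13 with Xpo5 siRNA, a difference of -0.72 ± 0.14 (limma adjusted p = 0.319), and the others differed by -0.64 and -0.55. All 3 lay lower on both Xpo5 siRNA arrays than on either control. Cnot9, a subunit of CCR4-NOT that GW182 contacts, read -0.56 and -0.43 with control siRNA, against -1.11 and -1.06 with Xpo5 siRNA, a difference of -0.59 ± 0.14. Eif4enif1, which binds the cap-binding protein, was at -0.48 on its first probe, and at -0.35 and -0.37 on the others. The higher one was Xrn1, the exonuclease that degrades decapped transcripts, at 0.84 ± 0.29, with its other probe at 0.51. The germline relatives Piwil1 and Piwil2 were not well above background on any of the 4 arrays. Outside the naming rule, and chosen after their values were seen, Cnot3 and Pan2 had the remaining lower probes, at -0.51 (1 of 3 probes) and -0.52 (1 of 2).

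**Figure D5:**
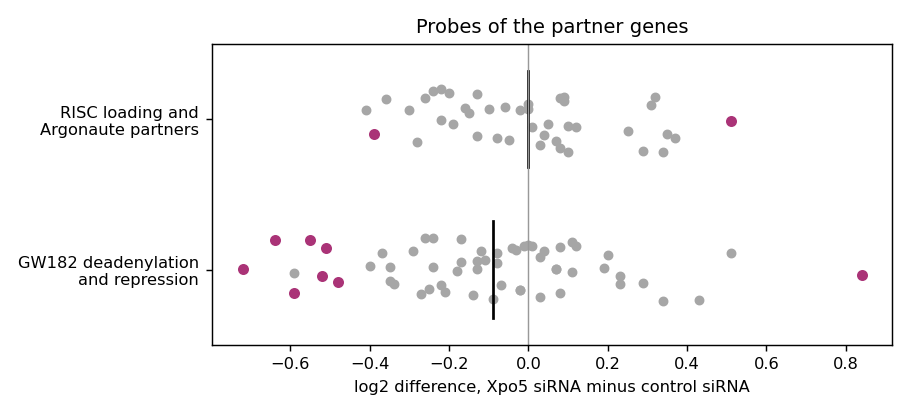
Log2 difference between Xpo5 siRNA and control siRNA for each kept probe of the partner lists (points, spread vertically only for legibility), with the list median as a black line and probes at a limma unadjusted p under 0.05 in purple. The medians are 0.00 for RISC loading and Argonaute partners and -0.09 for the list of deadenylation and repression genes. In the latter, 7 purple points lie below 0, of which 3 are Btg2 probes, and 1 above.

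Probes with the pattern most like 1 Ago2 and 1 Tnrc6 probe, taken by their mean signal over the 4 arrays only to fix a choice, were found by the root mean square distance of the 4 log2 values, centred on the probe mean. For Ago2 A_51_P180001 the nearest genes were Rasa1, Mipol1 and Rhbdl3, at 0.0371, 0.0379 and 0.0443. For Tnrc6a A_51_P141136 they were Zfp157, Pomt2 and Syn1, at 0.0124, 0.0142 and 0.0174. With 4 arrays such nearness is common, since 116 and 456 probes lay within 0.1 of them.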

How the data were processed

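Per the labels' protocols, each of the 4 RNA samples was labelled with Cy3 for a 1-colour Agilent array. The authors' scanner files give intensity per spot, background-subtracted and detrended by Agilent Feature Extraction 10.5.1.1, with probe positions on mm9, per the file headers. Values in the deposited series table are log2, and equal the log2 of that intensity plus 1 constant for each array (99.7% to 99.8% of probes within 0.001). How the table was made is not given in the sources used here.

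Outlier spots were left out, spots of a probe averaged, and each array scaled to its 75th percentile. Every probe stood on its own in limma 3.58.1 (lmFit and eBayes, R 4.3.3), two-sided, with the Benjamini-Hochberg adjustment over 25641 probes. The fit was run on simulated arrays with no experiment or slide effect, to check only that it returned the added difference. That check cannot show how the p-values behave in this design. RefSeq (GRCm38.p6) served only for symbols and gene order. The sequence of 1 Ago2 probe is not reported here. The exon or untranslated part that each probe lies in was not analysed here. The alternatives were blocks by replicate or slide, normexp with an offset of 50, quantile or median scaling, other filters, an intensity trend, the deposited table, 1 probe a gene, and each array left out. Each slide was 1 scan and held 1 array of each group from different experiments. Deviations from the group means correlated at 0.515 between arrays of the same number, over 25629 probes, which are not independent. Exact permutation of 2 arrays against 2 cannot reach 0.05, so none was run.

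The members and lists were chosen with earlier results of these data known. All probes of the 7 genes were named, with Xpo5, up to 4 genes per partner list by smallest p, and the 3 nearest patterns.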

Additional observations from a re-analysis of the deposited data

How the results depend on the processing

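Under every alternative run no Argonaute or GW182 probe reached a limma adjusted p of 0.05, the smallest being 0.102, and no partner probe did. Over all probes the count passing went from 0 to 4 with the replicate block, 2 with normexp, 10 with median scaling, 10 in the deposited log2 table, 1 with an intensity trend and 2 with 1 probe a gene. Member probes at an unadjusted p under 0.05 went from 3 to 6 with the replicate block and 1 with 1 probe a gene. The replicate block changed no other call at an adjusted p under 0.05. Of 310 alternative values of member probes, 43 reversed in sign, over 14 probes whose difference was at most 0.31 in size. Median scaling and the deposited table moved the median of all kept probes by -0.11. With 1 array left out the experiments are unequal between the groups, so part of the gap between experiments enters the difference. The part of each in the reversals was not tested. The 310 include values that could not reverse. The blocks, the filters on dim probes and the intensity trend leave the difference of a member probe unchanged. The share that reversed among the other settings is therefore larger. Ago1 A_52_P313035 read -0.06 with quantile scaling and -0.08 with median scaling and in the deposited table, and Ago1 A_52_P97489 0.03 with quantile scaling. Ago2 A_52_P101218 read -0.01 with normexp, -0.02 with quantile scaling, and -0.06 with median scaling and in the deposited table. Ago3 A_52_P556266 read -0.04, -0.05 and -0.05, and Ago4 A_52_P27117 -0.05, -0.07 and -0.07, with quantile, median and deposited scaling. With normexp Ago4 A_52_P525027 read 0.02, Tnrc6b A_52_P459399 0.04 and Tnrc6a A_51_P141136 -0.02, the last at -0.08 with median scaling and in the deposited table. With 1 array left out, Ago1 A_52_P313035 went from -0.53 to 0.59, A_52_P97489 from -0.35 to 0.34 and A_52_P76402 from -0.05 to 0.05. Ago2 A_52_P101218 went from -0.58 to 0.67, A_52_P101221 from -0.42 to 0.05 and A_51_P180001 from -0.66 to 0.03. Ago3 A_52_P556266 went from -0.04 to 0.15, Ago4 A_52_P525027 from -0.53 to 0.37 and A_52_P27117 from -0.16 to 0.23. Tnrc6a A_51_P141136 went from -0.29 to 0.34, Tnrc6b A_52_P459399 from -0.50 to 0.20, A_52_P627099 from -0.54 to 0.46 and A_52_P301047 from -0.84 to 0.48, and Tnrc6c A_51_P321563 from -0.36 to 0.12. Tnrc6a A_51_P509229 stayed between 0.55 and 0.74 and Tnrc6b A_51_P398596 between -0.87 and -0.69. Of the others that kept their sign, Ago3 A_51_P113068 went from 0.16 to 1.01, Ago4 A_52_P17422 from -0.94 to -0.11, A_52_P27122 from -0.59 to -0.10 and A_52_P8444 from 0.04 to 0.24. Tnrc6a A_51_P311379 went from 0.42 to 0.89, Tnrc6b A_51_P344770 from 0.29 to 1.14, A_52_P234159 from -0.41 to -0.13 and Ago3 A_52_P126513 from -0.21 to -0.20. Normexp gave 0.16 for A_51_P113068, -0.07 for A_52_P17422, -0.08 for A_52_P27122, 0.06 for A_52_P8444, 0.44 for A_51_P344770 and -0.11 for A_52_P234159.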
